A study of Mus musculus with 18 samples.

Results

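The response of control mouse embryonic stem cells to a differentiation course toward the pancreatic lineage was measured as the difference between day 8 and day 0 in the line named Ctrlv2. The comparison takes 6 of the 18 RNA-seq libraries of the study, 3 at day 0 and 3 at day 8, and all genes with at least 0.5 FPKM (fragments per kilobase of gene length, scaled to library size) in at least 3 of those 6 libraries. That left 15269 of the 54532 genes in the deposited table. The other 12 libraries come from the lines Arf-B and Arf-C, and enter here only through the shared estimate of the spread between replicates.

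All cells were of the embryonic stem cell line ES-E14TG2a, and every library carries the genotype label wild type. What distinguishes Ctrlv2 from its parent, and whether it is 1 clone, was found in no label or file used here. At day 0 the cells had been kept on gelatine with 15% serum and leukaemia inhibitory factor (Lif) at 1000 U/mL. By day 8 they had received activin A at 20 ng/mL with Matrigel from day 0, and retinoic acid (5 in the unit written in the labels as μM/ml) with FGF10 at 10 ng/mL from day 4. There were no libraries between the days and no untreated cells kept for 8 days, so activin A, retinoic acid, FGF10, Matrigel and time in culture cannot be told apart. Replicates are numbered 1 to 3 with no statement that they are separate cultures, so p-values measure only the spread between these samples.

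Embryonic stem cells hold the state of the early epiblast through a network of transcription factors, Lif signalling and their own Fgf4. Activin binds receptors that phosphorylate Smad2 and Smad3, and in culture it is used to drive stem cells to endoderm. Retinoic acid enters the nucleus, binds receptors that sit on DNA as pairs with retinoid X receptors, and turns on its own breakdown enzymes, Hox genes and regulators of position along the body axis. In the embryo it patterns the foregut from which the pancreas buds, and Fgf10 from the neighbouring mesenchyme keeps pancreatic progenitors dividing. Retinoic acid is also known to turn embryonal carcinoma cells into extraembryonic endoderm, which makes the basement membrane around the yolk sac.

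Reads on genes numbered 26174892 to 33311220 per library at day 0 and 10432590 to 14709983 at day 8, so depth moved with the day. On a gene of 1 kilobase, 3 reads equalled 0.093 to 0.119 FPKM at day 0 and 0.195 to 0.282 FPKM at day 8. With reads thinned to 10432590 in every library, 10582 of the 11153 calls were kept with the same sign. Across the tested genes, libraries of the same day correlated at Pearson r of 0.9825 to 0.9922 and libraries of different days at 0.8361 to 0.8415, where genes are not independent replicates. The first principal component held 89.8% of the variance and separated the days. Replicate 2 of day 8 stood apart from the other day 8 libraries on the second component, which held 3.37% (-23.1 against 12.4 and 10.7).

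Most of the transcriptome moved. Differences are given on the log2(FPKM + 1) scale as day 8 minus day 0, which understates the change of low genes, with the standard error (SE) of the fit. A gene was called at a limma p-value, adjusted by Benjamini-Hochberg over the 15269 tested genes, below 0.05. At day 8, 5465 genes (35.8%) were called higher and 5688 (37.3%) lower, 73.0% in all, and 4116 were not called. That order of the 2 counts turned with scaling: 5986 were higher and 5086 lower with libraries scaled to the same total of reads on genes, and 6190 and 4811 with the same sum of FPKM. The median difference over all tested genes was -0.03 and the middle 50% lay between -0.53 and 0.52. Calls of at least 2-fold numbered 1809 higher (11.8%) and 1680 lower (11.0%). In 11137 genes (72.9%) the 3 libraries of one day all lay above the 3 of the other. A call alone is therefore the usual outcome for a gene in these data, and the counts for each gene list below are to be read against these shares. A gene below 0.5 FPKM in all 3 day 0 libraries passed the filter only through day 8, so it could hardly be called lower. The reverse holds for genes that low at day 8. In bulk samples such as these, fewer cells of a type and less RNA per cell cannot be told apart.

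**Figure D1:**
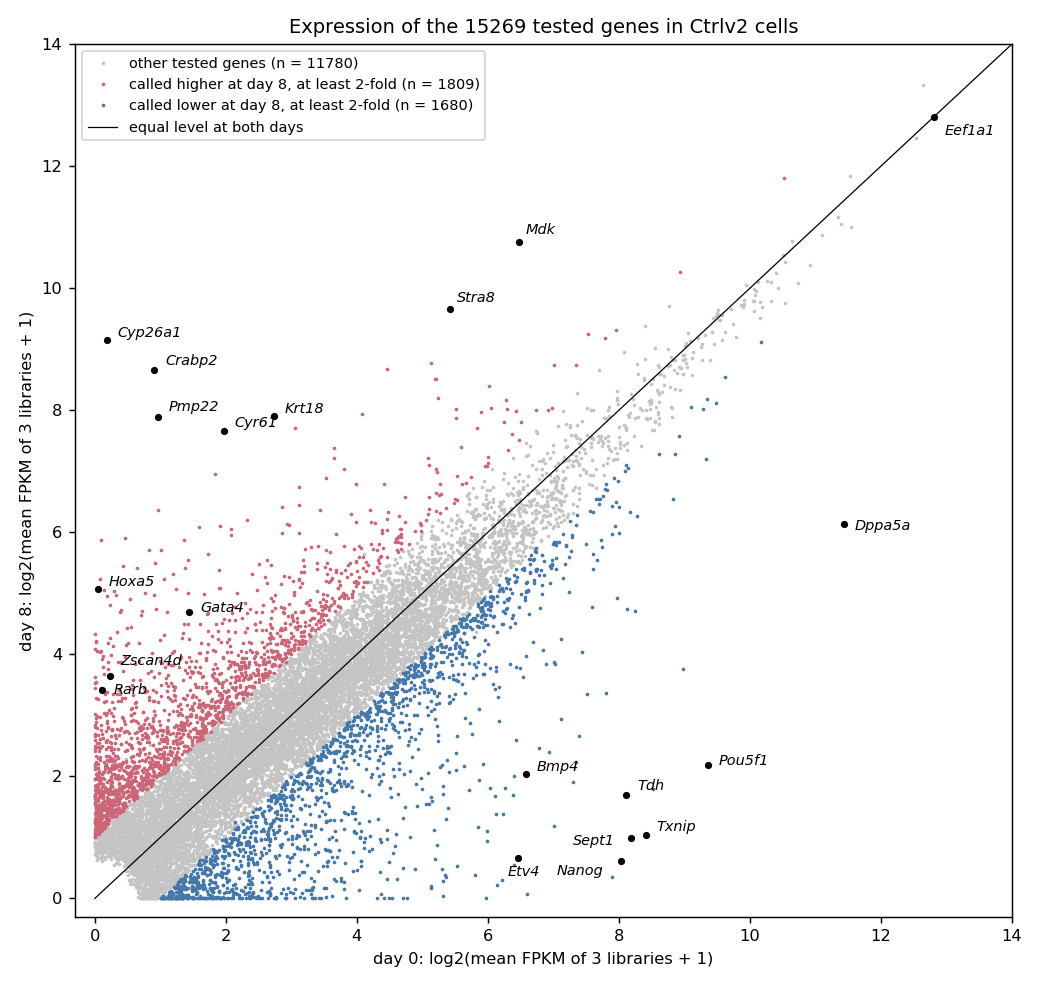
Mean expression at day 0 (horizontal axis) and day 8 (vertical axis), each as log2(mean FPKM of 3 libraries + 1), for the 15269 tested genes of Ctrlv2 cells; red and blue points are genes called at least 2-fold higher (1809) or lower (1680) at day 8, and black points are named genes. The largest rise is Cyp26a1 at upper left, and pluripotency genes such as Nanog and Pou5f1 lie at lower right, while Eef1a1, among the most abundant messages, lies on the line of equal levels.

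Retinoic acid breakdown and binding gave the largest rises of the whole comparison. Cyp26a1, the cytochrome P450 that oxidises retinoic acid, measured 0.0579, 0.224 and 0.122 FPKM in the day 0 libraries and 601, 538 and 557 FPKM at day 8, a difference of 8.97 (SE 0.10, adjusted p = 7.85e-19). Its relatives Cyp26b1 and Cyp26c1 followed: Cyp26b1 went from 0.0703, 0.0296 and 0.116 FPKM to 66.8, 50 and 56 FPKM, and Cyp26c1 from at most 0.124 to 13.2 to 16.1 FPKM. No library of one day reached the range of the other for any of these 3 enzymes. Dhrs3, which returns retinaldehyde to retinol, rose from 0.296 to 0.409 FPKM to 37 to 48.9 FPKM (log2 difference 5.01, SE 0.11, adjusted p = 1.53e-15).

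A binding protein rose with the enzymes. Crabp2, which carries retinoic acid to the nucleus, held 1.37, 0.57 and 0.68 FPKM at day 0 and 429, 405 and 369 FPKM at day 8 (log2 difference 7.77, SE 0.13, adjusted p = 1.56e-16). The enzyme that makes retinoic acid from retinaldehyde did not pass the test: Aldh1a2 measured 1.21, 1.09 and 1.05 FPKM at day 0 and 1.12, 1.25 and 0.907 FPKM at day 8 (adjusted p = 0.866). Crabp1, a related carrier, also overlapped between the days (7.12 to 9.66 against 8.92 to 13 FPKM, adjusted p = 0.225). Over the list of 16 genes that make, bind or break down retinoic acid, 12 were tested, 10 were called higher, none lower, and the median difference was 3.24. Members near 0 at day 0, such as the Cyp26 genes, passed the filter only through day 8. These counts and this median are therefore partly set by the filter. The summed level of the list went from 14.8 to 18.7 FPKM per library to between 1145 and 1288 FPKM.

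The receptors changed in composition. Of 10 tested members of the receptor list 4 were called higher and 4 lower (median 0.16). Rarb, the receptor best known as a direct target of its own ligand, held 0.0845, 0.0903 and 0.0765 FPKM at day 0 and 9.42, 8.83 and 10.8 FPKM at day 8 (log2 difference 3.30, SE 0.09, adjusted p = 2.02e-14). Rarg, the main receptor of this family in the undifferentiated cells by level, fell from 67.2, 70.4 and 67.4 FPKM to 9.94, 8.79 and 10.7 FPKM (-2.68, SE 0.06, adjusted p = 4.49e-15). Rara moved little, from 12.9 to 15.5 FPKM to 18.7 to 20.6 FPKM (0.44, SE 0.07, adjusted p = 2.98e-05). At day 0 the levels ran Rarg, Rara, Rarb. At day 8 Rara was highest, and the ranges of Rarg and Rarb overlapped. Nrip1, a corepressor that liganded retinoic acid receptors recruit, rose from 0.627 to 1.22 FPKM to 13.9 to 14 FPKM (log2 difference 2.92, SE 0.10).

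Known retinoic acid targets went the same way. Of 19 listed genes, all tested, 18 were called higher and 1 lower, with a median of 3.30 against -0.03 for all genes. Stra8, a gatekeeper of meiosis in germ cells, was already present at 41.8, 35.5 and 48.4 FPKM at day 0 and reached 858, 769 and 793 FPKM at day 8 (log2 difference 4.24, SE 0.10, adjusted p = 3.34e-15). Rec8, a meiotic cohesin, rose from 1.96 to 3.03 FPKM to 113 to 128 FPKM (5.12, SE 0.12), and Zfp703, a zinc finger repressor, from 0.105 to 0.172 FPKM to 25 to 34.7 FPKM (4.75, SE 0.09). The exception was Cdx1, a caudal homeobox gene, which fell from 9.39, 6.55 and 8.94 FPKM to 1.3, 2.31 and 2.08 FPKM (-1.69, SE 0.18, adjusted p = 3.37e-07).

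Retinoic acid receptors bind paired half-sites in tandem, and the sequences ahead of Cyp26a1 and Rarb hold the classic spacing of 5 bases. RefSeq start sites (build GRCm38.p6) were searched from 250 bases before to 50 after the start, on both strands, for 2 half-sites with 5 bases between them, each of which could be the letters AGGTCA or the letters AGTTCA or the letters GGTTCA or the letters GGGTCA. The 100 bases before each start are shown on the strand of the gene, with both half-sites and the 5 bases between them in capitals.
Cyp26a1, chr19:37697708-37697807, plus strand: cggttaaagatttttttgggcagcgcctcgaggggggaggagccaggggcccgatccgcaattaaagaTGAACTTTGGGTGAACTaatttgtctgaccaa
Rarb, chr14:16575477-16575576, minus strand: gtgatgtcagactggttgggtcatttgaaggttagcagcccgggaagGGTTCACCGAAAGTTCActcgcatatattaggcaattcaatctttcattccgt
In Cyp26a1 both half-sites were AGTTCA, read on the opposite strand, from -32 to -16 relative to the start. In Rarb the half-site GGTTCA came ahead of the half-site AGTTCA, read along the gene, from -53 to -37. Such a repeat was found in 32 of all 32851 windows (0.097%), in 6 of 13273 windows of tested genes (0.045%), in 2 of 1696 windows of genes called at least 2-fold higher (0.12%), and in 2 of 1466 windows of genes called at least 2-fold lower (0.14%). The pair named here were the 2 of 105 windows (1.9%) of genes called higher by a log2 difference of at least 3. Repeats with 1 or 2 bases between the half-sites were searched in the same way. They were found in 0 and 1 of those 105 windows, and in 0.26% and 0.098% of windows of tested genes. In the 125 windows of genes called lower by at least 3, the counts for 1, 2 and 5 bases were 1, 1 and 0. Windows were found for 10403 tested symbols (68.1%). A match describes letters in a window, not binding.

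Hox genes, which give cells their position along the head-to-tail axis, came on as blocks. Of 39 Hox genes in the table, 27 were tested and 26 of those were called higher, none lower, with a median of 2.50. Hox genes near 0 at day 0 were tested only if day 8 raised them above the filter, so this share and median are partly set by the filter. Their summed level went from 4.92 to 7.57 FPKM per library at day 0 to 262 to 288 FPKM at day 8. Hoxb1 had no read in any day 0 library and 19.8, 19 and 18.6 FPKM at day 8, which is at least 1282-fold higher when day 0 is set at 3 reads over its 3 libraries together. Hoxb4 rose from 0.12, 0.0927 and 0.109 FPKM to 35.3, 31.3 and 30.7 FPKM (log2 difference 4.91, SE 0.07, adjusted p = 1.28e-17). Hoxa5 rose from at most 0.0547 FPKM to 33.5, 28.2 and 35.9 FPKM (5.01, SE 0.09, adjusted p = 1.46e-16).

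The clusters differed in how far the activation reached. In Hoxa, the genes from Hoxa2 to Hoxa5 were at 4.4 FPKM or above in every day 8 library, whereas Hoxa6 lay between 0.148 and 0.633 FPKM and Hoxa7 between 0.557 and 1.32 FPKM. Hoxb was on along its whole length: the 10 genes from Hoxb13 to Hoxb1 (chr11:96194316-96368256) were each called at least 2-fold higher, with a median of 3.67. Levels within it were uneven. Hoxb9 reached 20, 20 and 22.5 FPKM, and Hoxb13, a gene of the tail end, 3.91, 4.78 and 3.47 FPKM. Hoxb3 reached only 2.75, 1.57 and 2.49 FPKM, in the range of low members of Hoxc and Hoxd. In Hoxc, Hoxc4 and Hoxc5 led, and levels dropped to 3 FPKM or below from Hoxc6 to Hoxc10. Hoxd stayed low, with its highest members at 1.83, 1.9 and 2.32 FPKM (Hoxd13) and 1.7, 1.24 and 1.87 FPKM (Hoxd8), and 6 of its 9 listed members below the filter. Hoxc12 was the tested member without a call (0.872 to 1.33 FPKM at day 0, 0.0913 to 1.15 FPKM at day 8, adjusted p = 0.0788), and it was called lower without replicate 3 of day 8 (adjusted p = 0.00456). Hox genes described here beyond the 6 with the largest differences were chosen after their values were seen.

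**Figure D2:**
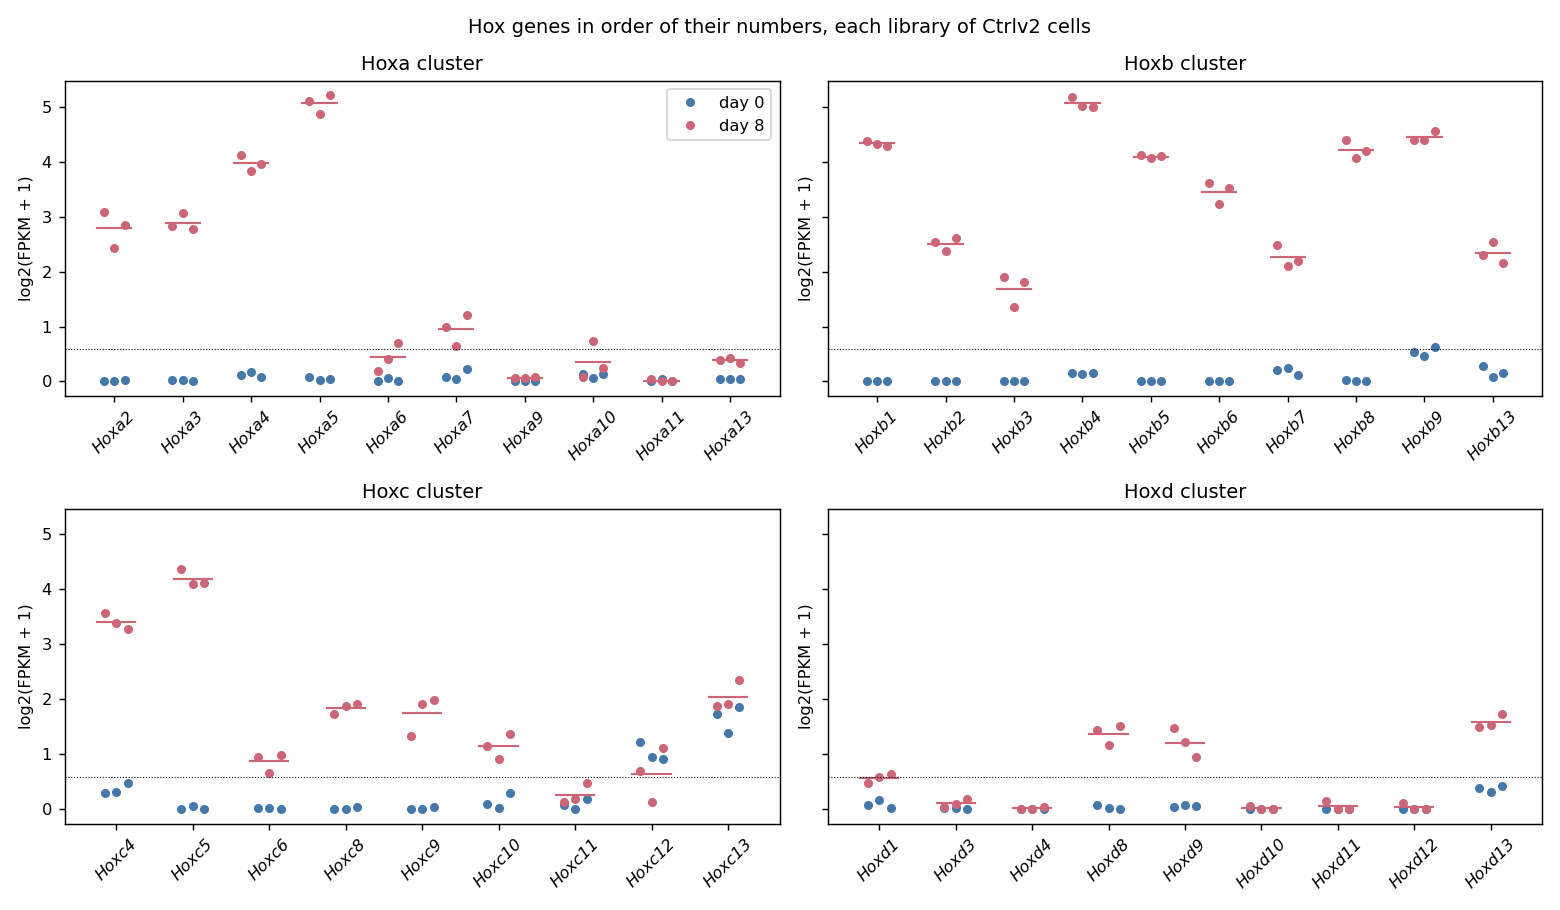
Log2(FPKM + 1) of Hox genes in each Ctrlv2 library, ordered by number within the 4 clusters; blue points are the 3 day 0 libraries, red points the 3 day 8 libraries, the red bar their mean, and the dotted line marks 0.5 FPKM. Red points lie high from Hoxa2 to Hoxa5, above the blue points along the whole Hoxb cluster though low for Hoxb3, and close to 0 in most of Hoxd.

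Most of the tested Hox cofactors and other axis regulators were called higher too. Of 16 tested genes on that list, 13 were called higher and 3 lower (median 1.79). Meis2, whose protein binds DNA beside Hox proteins, rose from 0.571 to 0.625 FPKM to 16.3 to 18.9 FPKM (log2 difference 3.51, SE 0.09), and Tshz1, a teashirt family zinc finger gene, from 0.119 to 0.254 FPKM to 13.4 to 16.1 FPKM (3.72, SE 0.10). Transcription factors as a class leaned upward: of the 1050 tested genes with a factor family in the deposited annotation, 561 were called higher and 259 lower, with a median of 0.33. Among all other genes 34.5% were called higher and 38.2% lower. Homeobox genes, a family that includes the Hox genes, had 79 of 103 called higher and 20 lower (median 0.99), and zinc fingers of the C2H2 type 244 of 474 higher and 96 lower (median 0.33). Of 10 tested E2F family genes 3 were called higher and 7 lower.

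The list of activin and Nodal ligands, receptors, inhibitors and Smads moved in both directions, with 9 of 15 tested members called higher and 6 lower (median 0.40). Tdgf1 (Cripto), the coreceptor of Nodal, fell from 340, 364 and 398 FPKM to 3.96, 1.8 and 1.6 FPKM (log2 difference -6.80, SE 0.18, adjusted p = 5.24e-14). Ligand genes were among those that fell: Inhbb, which encodes an activin subunit, from 39.7 to 40.4 FPKM to 0.152 to 0.446 FPKM (-5.01, SE 0.10), and Gdf3 from 37.2 to 42.7 FPKM to 0.134 to 0.466 FPKM (-4.96, SE 0.18). Nodal itself fell less, from 36.9, 30.7 and 34.3 FPKM to 7.8, 12.2 and 9.5 FPKM (-1.71, SE 0.15, adjusted p = 5.38e-08). Smad3, an effector of the receptors, rose from 1.57, 1.34 and 1.38 FPKM to 14.3, 11.6 and 12.9 FPKM (2.52, SE 0.08, adjusted p = 5.24e-14).

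Target genes of the pathway split. The feedback inhibitors fell: Lefty2 from 40.9, 41.4 and 42.3 FPKM to 2.71, 3.35 and 3.6 FPKM (log2 difference -3.34, SE 0.17), and Lefty1 from 23.1 to 24.4 FPKM to 1.4 to 2.79 FPKM (-2.94, SE 0.19). Skil, a Smad corepressor, rose from 7.29 to 8.98 FPKM to 33.5 to 37.4 FPKM (2.02, SE 0.07), and so did the endoderm regulator Foxa2 (at most 0.0785 FPKM to between 3.02 and 4.5 FPKM). Over the 10 tested targets 6 were called higher and 4 lower.

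Bmp4 fell while several genes that Bmp signals turn on rose. Bmp4 went from 86.6, 106 and 92 FPKM to 2.28, 3.23 and 3.8 FPKM (log2 difference -4.56, SE 0.12, adjusted p = 9.75e-15). Id3 went from 11.3, 9.91 and 10.3 FPKM to 115, 122 and 118 FPKM (3.37, SE 0.14), Id2 from 2.47 to 3.16 FPKM to 36.5 to 43.3 FPKM (3.50, SE 0.10), and the inhibitory Smad6 from 0.186 to 0.395 FPKM to 7.29 to 9.19 FPKM (2.87, SE 0.13). Id1 did not pass the test, with 119 to 140 FPKM at day 0 and 132 to 142 FPKM at day 8 (adjusted p = 0.412), although it was called higher when libraries were scaled to the same total of reads (adjusted p = 0.0478) or the same sum of FPKM (adjusted p = 0.0124). Of the 16 tested members of the Bmp list 12 were called higher and 2 lower, with a median of 0.89.

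The ligand gene Fgf4 and several transcripts that read out Fgf and Erk signalling in stem cells fell to near absence. Fgf4, the autocrine ligand, fell from 73.2, 67 and 68.7 FPKM to 0.304, 0 and 0.198 FPKM (log2 difference -5.93, SE 0.11, adjusted p = 3.24e-16). Etv4, an Ets factor induced by Erk, fell from 88.7, 84.8 and 87.9 FPKM to 0.501, 0.546 and 0.687 FPKM (-5.80, SE 0.14, adjusted p = 5.19e-15), and the feedback inhibitor Spry4 from 47.6, 65.6 and 51.7 FPKM to 0.141, 0.226 and 0.551 FPKM (-5.42, SE 0.17, adjusted p = 1.72e-13). The day 8 cells had received FGF10 from day 4. Etv5 and Spry2 fell by 4.53 and 3.07 on the log2 scale. Fgfr2, whose epithelial isoform is the receptor for Fgf10, rose from 0.0331, 0.0614 and 0.045 FPKM to 4.82, 4.17 and 4.01 FPKM (2.35, SE 0.10, adjusted p = 3.85e-12), and gene-level values do not tell its isoforms apart. Dusp5, a nuclear Erk phosphatase, rose from 4.25 to 4.95 FPKM to 31 to 33.6 FPKM (2.58, SE 0.09). The list of Fgf receptors and Erk targets had 11 of 19 members called lower and 7 higher (median -0.80).

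Several readouts of Lif fell, and whether Lif was in the medium up to day 8 was found in no label used here. Socs3, the feedback inhibitor of Stat3 signalling, fell from 70.7, 63.7 and 72.3 FPKM to 14.6, 12.1 and 10.1 FPKM (log2 difference -2.41, SE 0.14, adjusted p = 2.75e-10). Socs2 fell from 16.6 to 18.5 FPKM to 2.37 to 3.5 FPKM (-2.23, SE 0.10), and Bcl3 from 33 to 36.2 FPKM to 8.39 to 8.48 FPKM (-1.90, SE 0.11). Jak2, the kinase, rose from 2.14 to 2.41 FPKM to 6.85 to 9 FPKM (1.47, SE 0.09). Of 12 members 7 were called lower and 4 higher.

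**Figure D3:**
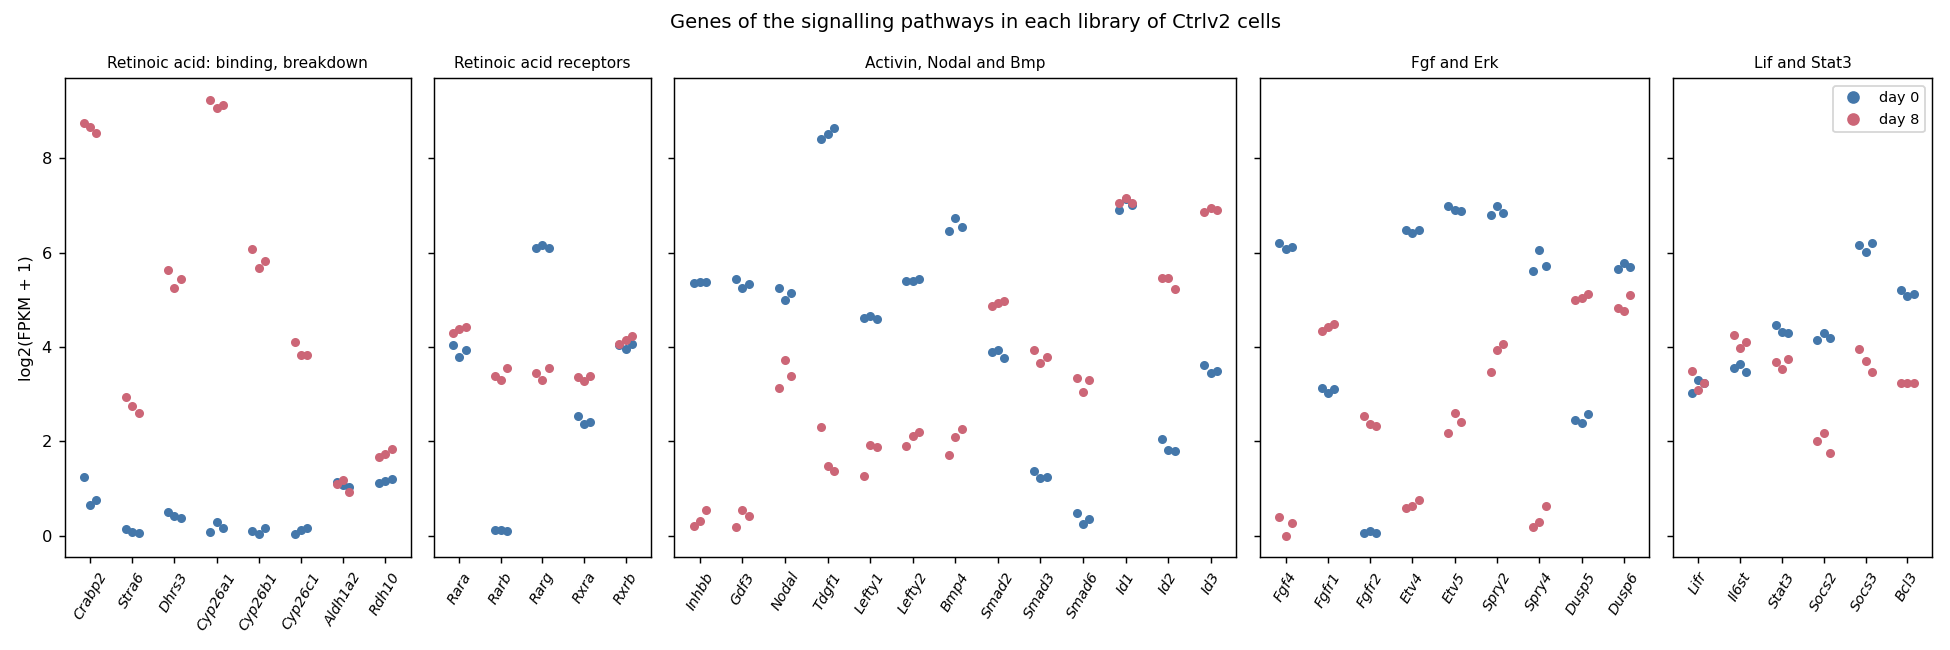
Log2(FPKM + 1) of signalling genes in each Ctrlv2 library, with the 3 day 0 libraries in blue and the 3 day 8 libraries in red, grouped by pathway. Retinoic acid binding and breakdown genes are red high and blue low except Aldh1a2 (adjusted p = 0.866), the ligands Inhbb, Gdf3, Bmp4 and Fgf4 are blue high and red low, and the days overlap for Id1 and Lifr.

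Receptors of Wnt moved in both directions. Fzd2 rose from 0.299, 0.238 and 0.228 FPKM to 31.2, 28.7 and 31.5 FPKM (log2 difference 4.65, SE 0.12), with Fzd1 (3.21) and Fzd8 (2.85), while Fzd5 fell from 35.1, 35.5 and 32.4 FPKM to 1.8, 2.29 and 1.95 FPKM (-3.55, SE 0.09), with Fzd10 (-2.16). Sfrp5, a secreted inhibitor made by the foregut in the embryo, rose from 0.504 to 0.709 FPKM to 21.2 to 28.8 FPKM (3.92, SE 0.13). Axin2, the usual readout of Wnt and beta-catenin activity, did not pass the test (1.47 to 1.56 FPKM against 1.56 to 1.73 FPKM, adjusted p = 0.338; chosen after its values were seen). The Wnt list had 15 of 21 tested genes called higher and 5 lower (median 0.80).

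In the Hedgehog pathway the membrane protein Gas1, a coreceptor, rose from 0.312, 0.281 and 0.534 FPKM to 71.1, 47.2 and 59 FPKM (log2 difference 5.43, SE 0.15, adjusted p = 1.75e-14). Ptch1, a receptor that the pathway induces, rose from 3.18 to 3.99 FPKM to 10 to 13.9 FPKM, whereas Gli1, an activator that the pathway also induces, fell from 14.2 to 16 FPKM to 5.33 to 8.29 FPKM. Of 11 tested members 7 were called higher and 3 lower. The Notch list was mixed (6 of 12 higher, 5 lower, median 0.24 and, over members averaging 1 FPKM or more, -0.39): Notch3 rose by 2.00 and Hes1 fell by 1.62 on the log2 scale.

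Targets of Yap and Taz, the effectors of cell shape and stiffness, leaned upward, with 15 of 18 members called higher and 1 lower (median 1.19). Cyr61, a secreted matrix protein, rose from 3.03, 2.38 and 3.33 FPKM to 192, 179 and 233 FPKM (log2 difference 5.69, SE 0.15, adjusted p = 2.42e-14). F3, tissue factor, rose from 2.41 to 3.36 FPKM to 28.5 to 38.4 FPKM (3.17, SE 0.13). Tead4, a partner of Yap in the trophectoderm, fell from 16.1 to 18.3 FPKM to 4.25 to 5.18 FPKM (-1.69, SE 0.10). Its relatives Tead1, Tead2 and Tead3 were called higher, by 1.35, 1.15 and 1.61 on the log2 scale (chosen after their values were seen). Ctgf, the other target most often used as a readout, moved by 0.47 with libraries of the days overlapping (5.22 to 7.77 against 7.1 to 12 FPKM, adjusted p = 0.0162; chosen after its values were seen), and that call was lost without replicate 2 of day 0 (adjusted p = 0.0961), replicate 2 of day 8 (0.0935) or replicate 3 of day 8 (0.0603).

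Genes of the stem cell state fell together. All 17 tested naive pluripotency factors were called lower, with a median of -4.73, and their summed level went from 5002 to 5054 FPKM per library to 119 to 148 FPKM. Tcl1, a coactivator of Akt in stem cells, went from 102, 82 and 103 FPKM to 0.0703, 0.051 and 0.0428 FPKM (log2 difference -6.51, SE 0.14, adjusted p = 1.35e-15). Utf1 went from 201 to 238 FPKM to 8.09 to 10.8 FPKM (-4.44, SE 0.17), and Foxd3 fell by 4.20 on the same scale. Sox2 fell by 3.54 but kept 23.7 to 27.8 FPKM. Lin28a, the RNA-binding protein that blocks let-7 maturation, was one of 2 core factors of 12 not called, and it held 71.2, 67.7 and 63.4 FPKM at day 0 and 70.5, 65.2 and 63.8 FPKM at day 8 (-0.02, SE 0.06, adjusted p = 0.788; chosen after its values were seen).

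Formative and primed genes were mixed. Cldn6, a tight junction protein that marks early epithelia, rose from 6.74, 5.6 and 6.48 FPKM to 75.2, 91 and 85.5 FPKM (log2 difference 3.54, SE 0.10), and Cdh2 from 0.432 to 0.576 FPKM to 6.86 to 8.23 FPKM (2.55, SE 0.07). Dnmt3a rose from 1.81 to 1.94 FPKM to 7.27 to 9.28 FPKM while Dnmt3b fell from 24.6 to 25.8 FPKM to 13 to 14.2 FPKM. Of the 8 tested 5 were called higher and 2 lower.

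A small group of genes known from the 2-cell embryo and from the rare 2-cell-like cells of stem cell cultures went against that fall. All 7 tested members were called higher (median 2.40). The summed level of the 9 found went from 0.485 to 1.18 FPKM per library to 31.4 to 41.0 FPKM. With such levels at day 0, members passed the filter through day 8 libraries. That all tested members were higher was therefore largely set by the filter. Zscan4d, a telomere-associated zinc finger protein, measured 0.0301, 0.314 and 0.177 FPKM at day 0 and 13.3, 9.95 and 11.2 FPKM at day 8 (log2 difference 3.41, SE 0.21, adjusted p = 5.9e-10). Zscan4c measured 0.0301, 0.209 and 0.0817 FPKM and then 7.55, 5.96 and 8.09 FPKM (2.88, SE 0.22), and Usp17lb, a deubiquitinase of the same stage, 0.153 to 0.238 FPKM and then 4.1 to 6.32 FPKM (2.40, SE 0.16). Tcstv3 had no read at day 0 and 1.42, 1.33 and 0.71 FPKM at day 8, at least 25.9-fold higher against 3 reads over the 3 day 0 libraries. All day 8 libraries lay above all day 0 libraries for each of these 4 genes. Zfp352, another gene of that state, stayed below the filter, at 0.313 to 0.538 FPKM at day 8. Members of these families are near-identical copies, so reads may be split or shared among them.

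Other genes of the oocyte and preimplantation embryo fell instead (10 of 11 tested, median -1.63). Mymx went from 80.7, 64.6 and 75.2 FPKM to 0.316, 0 and 0.385 FPKM (log2 difference -5.92, SE 0.20), and it is named for its known role in the fusion of muscle cells. Ooep, of the subcortical maternal complex, went from 36.1 to 41.5 FPKM to 0.273 to 0.617 FPKM (-4.82, SE 0.16). Dppa2 and Dppa4, which keep early embryonic genes accessible, fell by 1.74 and 1.63 and kept 19 to 25.2 FPKM and 28.9 to 30.4 FPKM. Khdc3, the exception, rose by 1.15 (SE 0.22, adjusted p = 0.000199; chosen after its values were seen).

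**Figure D4:**
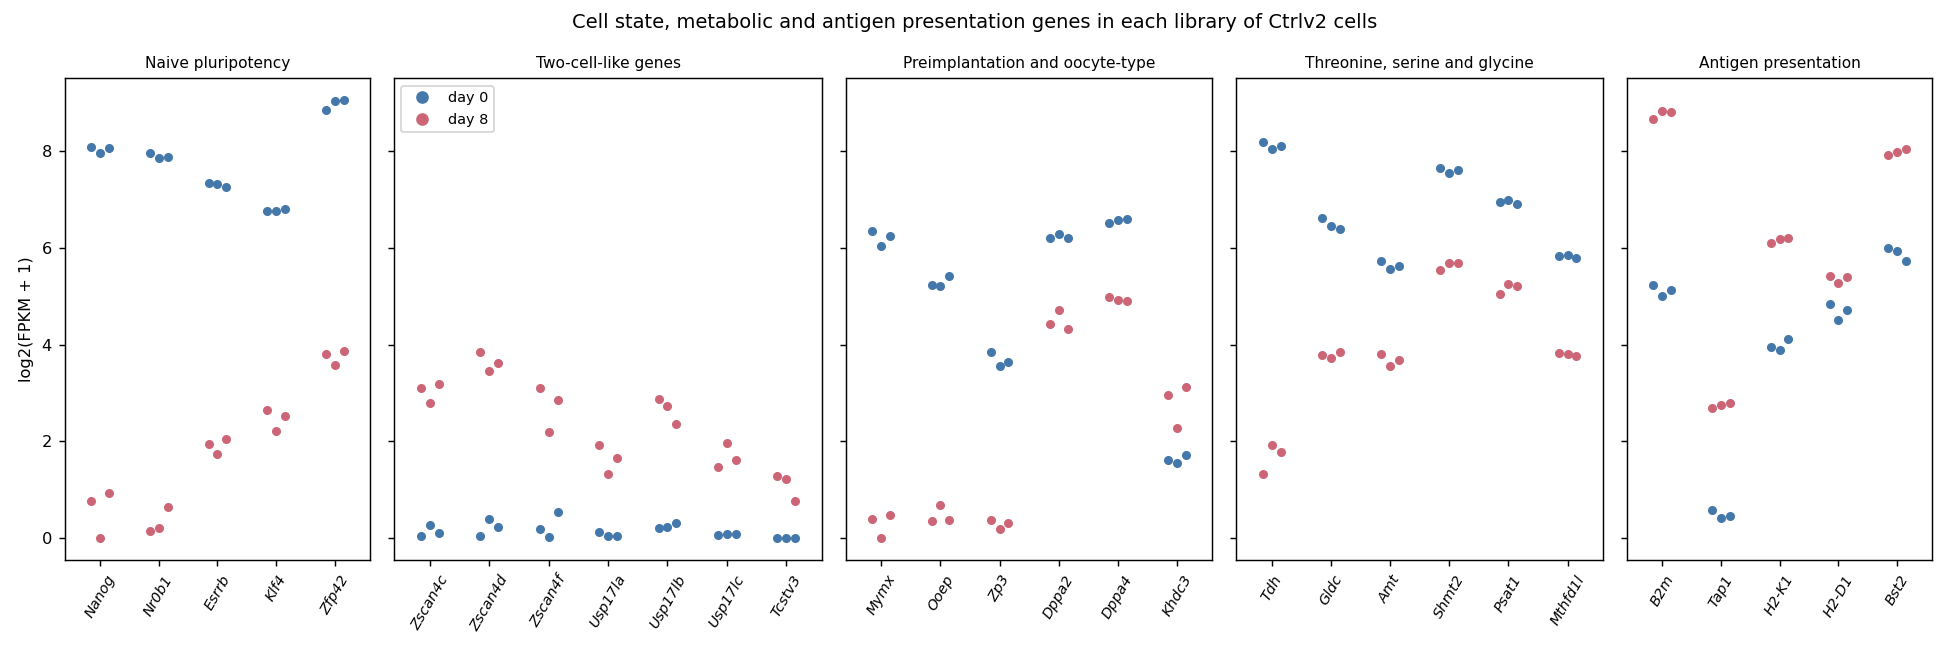
Log2(FPKM + 1) of naive pluripotency, 2-cell-like, preimplantation and oocyte-type, amino acid and antigen presentation genes in each Ctrlv2 library, blue for the 3 day 0 and red for the 3 day 8 libraries. Zscan4 and Usp17l genes are red high and blue near 0, opposite to the naive factors and to Mymx, Ooep and Zp3, and Tdh shows the widest gap among the amino acid genes (log2 difference -6.44).

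Several endoderm regulators rose from low levels. Gata4, a factor of both embryonic and extraembryonic endoderm, rose from 2.04, 1.54 and 1.56 FPKM to 26, 23.1 and 26.1 FPKM (log2 difference 3.26, SE 0.10, adjusted p = 6.24e-14). Gata6 rose from 0.121 to 0.153 FPKM to 5.54 to 7.04 FPKM (2.71, SE 0.08), and Foxa1 from 0.0926 to 0.158 FPKM to 2.81 to 4.42 FPKM (2.02, SE 0.11). Sox17, a defining gene of definitive endoderm, reached 1.43, 0.868 and 1.21 FPKM from at most 0.143 FPKM, and the surface receptor Cxcr4 fell by 0.40 (adjusted p = 0.00741, or 0.106 with thinned reads), both chosen after their values were seen. Of 13 tested genes of definitive endoderm 8 were called higher and 4 lower (median 0.47). With thinned reads, without replicate 3 of day 0 or without replicate 2 of day 8, 2 were lower instead of 4. The posterior foregut list had 8 of 13 tested genes higher and 4 lower (median 0.89).

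Pancreatic genes were mostly below the filter. Of 16 genes of pancreatic progenitors 6 were tested, of which 4 were called higher and 2 lower. The 2 lower were Hes1 (35.8 to 41.8 FPKM, then 11.6 to 12 FPKM) and Nkx6-2 (4.8 to 5.67 FPKM, then 0.746 to 1.14 FPKM). The summed level of the list fell from 41.7 to 48.5 FPKM per library to 31.9 to 37.9 FPKM. Prox1 rose from at most 0.0283 FPKM to 3.08, 2.61 and 2.97 FPKM (log2 difference 1.93, SE 0.08), and Sox9 from at most 0.00959 FPKM to 2.05, 2.09 and 1.6 FPKM (1.54, SE 0.09). Dlk1, an imprinted gene of fetal endocrine tissue, rose from 0.28 to 0.345 FPKM to 10.9 to 15.6 FPKM. Pdx1, the gene that defines the pancreatic bud, lay between 0.0431 and 0.175 FPKM in all 6 libraries. For endocrine and acinar cells 5 of 22 genes were tested, and Ins1, Ins2, Gcg, Sst, Iapp, Pax4, Amy2a5 and Prss2 had no read on either day. Chga, a granule protein of neuroendocrine cells, fell from 15.3, 15.7 and 15 FPKM to 0.847, 1.43 and 1.78 FPKM (-2.81, SE 0.12). Pdx1 and the 8 genes without reads were chosen after their values were seen.

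The extraembryonic endoderm list moved most among the lineages tested with at least 10 genes. Of 21 tested genes of primitive and parietal endoderm 18 were called higher and 2 lower, the median was 2.61, and the summed level went from 282 to 316 FPKM per library to 984 to 1153 FPKM. Krt18, a keratin of simple epithelia, rose from 5.55, 4.61 and 6.84 FPKM to 210, 252 and 251 FPKM (log2 difference 5.17, SE 0.18, adjusted p = 1.09e-12), and its partner Krt8 from 9.7 to 13.4 FPKM to 150 to 175 FPKM (3.73, SE 0.16). Col4a1, the collagen of basement membranes, rose from 4.3, 3.82 and 3.87 FPKM to 74.8, 60.3 and 83.8 FPKM (3.88, SE 0.10), together with Col4a2 (3.86, SE 0.12). Plat, tissue plasminogen activator and a classic product of parietal endoderm, rose from 0.0508 to 0.0987 FPKM to 8.86 to 11.2 FPKM (3.35, SE 0.08, adjusted p = 7.4e-15). Keratins and collagens are shared with other epithelia and with matrix-making cells.

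Visceral endoderm markers divided, with 6 of 10 tested genes higher and 4 lower: Lrp2, the endocytic receptor megalin, rose from 2.23 to 2.65 FPKM to 15.6 to 16.4 FPKM, whereas Hnf4a fell from 1.31 to 1.63 FPKM to 0.094 to 0.115 FPKM. Ttr, a product of visceral endoderm and liver, had no read at day 0 and 1.01, 1 and 1.1 FPKM at day 8, at least 36.6-fold higher against 3 reads over the 3 day 0 libraries. Trophoblast genes rose at low levels (8 of 9 tested higher, none lower, median 1.74). The 16 listed genes summed to 5.22 to 6.62 FPKM per library at day 0. Members near 0 then passed the filter only through day 8, which favours calls higher. Esx1, a placental homeobox gene, went from 0.484 to 0.569 FPKM to 11.9 to 15.4 FPKM (log2 difference 3.23, SE 0.10), and Gata3 from at most 0.0516 FPKM to 3.72, 4.43 and 4.07 FPKM. Tpbpa, Prl2c2 and Psg18, products of the mature placenta, had no read on either day (chosen after their values were seen).

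Contractile and mesodermal genes were mostly called higher. Members near 0 at day 0, such as Acta2, Foxf1 and Nkx2-5, passed the filter only through day 8, which favours calls higher. Of 12 tested smooth muscle and contractile genes 11 were called higher and 1 lower (median 2.07). Myl9, a myosin light chain, rose from 0.265, 0.171 and 0.107 FPKM to 25.1, 22.2 and 33.5 FPKM (log2 difference 4.55, SE 0.13), and Acta2, smooth muscle actin, from 0.0576, 0 and 0 FPKM to 13.3, 13 and 21 FPKM (4.01, SE 0.15). In lateral and splanchnic mesoderm 9 of 10 tested genes were higher, and 1, Bmp4, was lower. The summed level of that list fell, from 88.9 to 108 FPKM per library to 34 to 44.4 FPKM. Bmp4, at the levels given above, made up most of the sum at day 0, so the fall was that of Bmp4. Foxf1, a factor of the gut mesenchyme, went from at most 0.0128 FPKM to 6.34, 3.27 and 5.53 FPKM. Nkx2-5, of heart and spleen mesoderm, went from at most 0.142 FPKM to 3.57, 5.25 and 6.79 FPKM. Brachyury and Mixl1, markers of the primitive streak, were below the filter on both days (chosen after their values were seen). Of 15 tested fibroblast and mesenchymal genes 11 were called higher and 3 lower. Thy1, also made by these stem cells, fell from 14.6 to 16.4 FPKM to 0.475 to 0.566 FPKM, and Col1a2, a chain of collagen I, rose from at most 0.015 FPKM to 2.24 to 2.72 FPKM.

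Neural and endothelial genes moved in both directions, and no tested blood gene was called higher. In neural progenitors 7 of 8 tested genes were called higher and 1 lower, while 9 of the 17 listed genes were below the filter. The rises were led by Irx3 (at most 0.0337 FPKM to between 5.66 and 6.25 FPKM) and Nes (0.981 to 1.33 FPKM to between 10.1 and 13.3 FPKM). Neural progenitor genes near 0 at day 0, such as Irx3, passed the filter only through day 8, which favours calls higher. Of 8 tested neuronal genes 2 were called higher and 4 lower (median -0.52). Stmn2, a neuronal tubulin regulator, fell from 16.3 to 17.8 FPKM to 0.44 to 1.03 FPKM, and Gap43, a growth cone protein, rose from 0.937 to 1.04 FPKM to 1.98 to 3.99 FPKM. Of 8 tested endothelial genes 3 were called higher, each by at least 2-fold, and 5 lower (median -0.62). Pecam1, named for endothelium but present in these stem cells, fell from 31.4, 25.2 and 29.2 FPKM to 0.364, 0.469 and 0.342 FPKM (log2 difference -4.41, SE 0.18), and Flt1, a receptor for Vegf, rose from at most 0.0528 FPKM to 2.09, 2.33 and 2.61 FPKM (1.68, SE 0.07). Blood genes gave 3 tested members of 14, none higher and 2 lower. These markers are a measure of summed RNA, and the part of each cell type in the results was not tested.

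**Figure D5:**
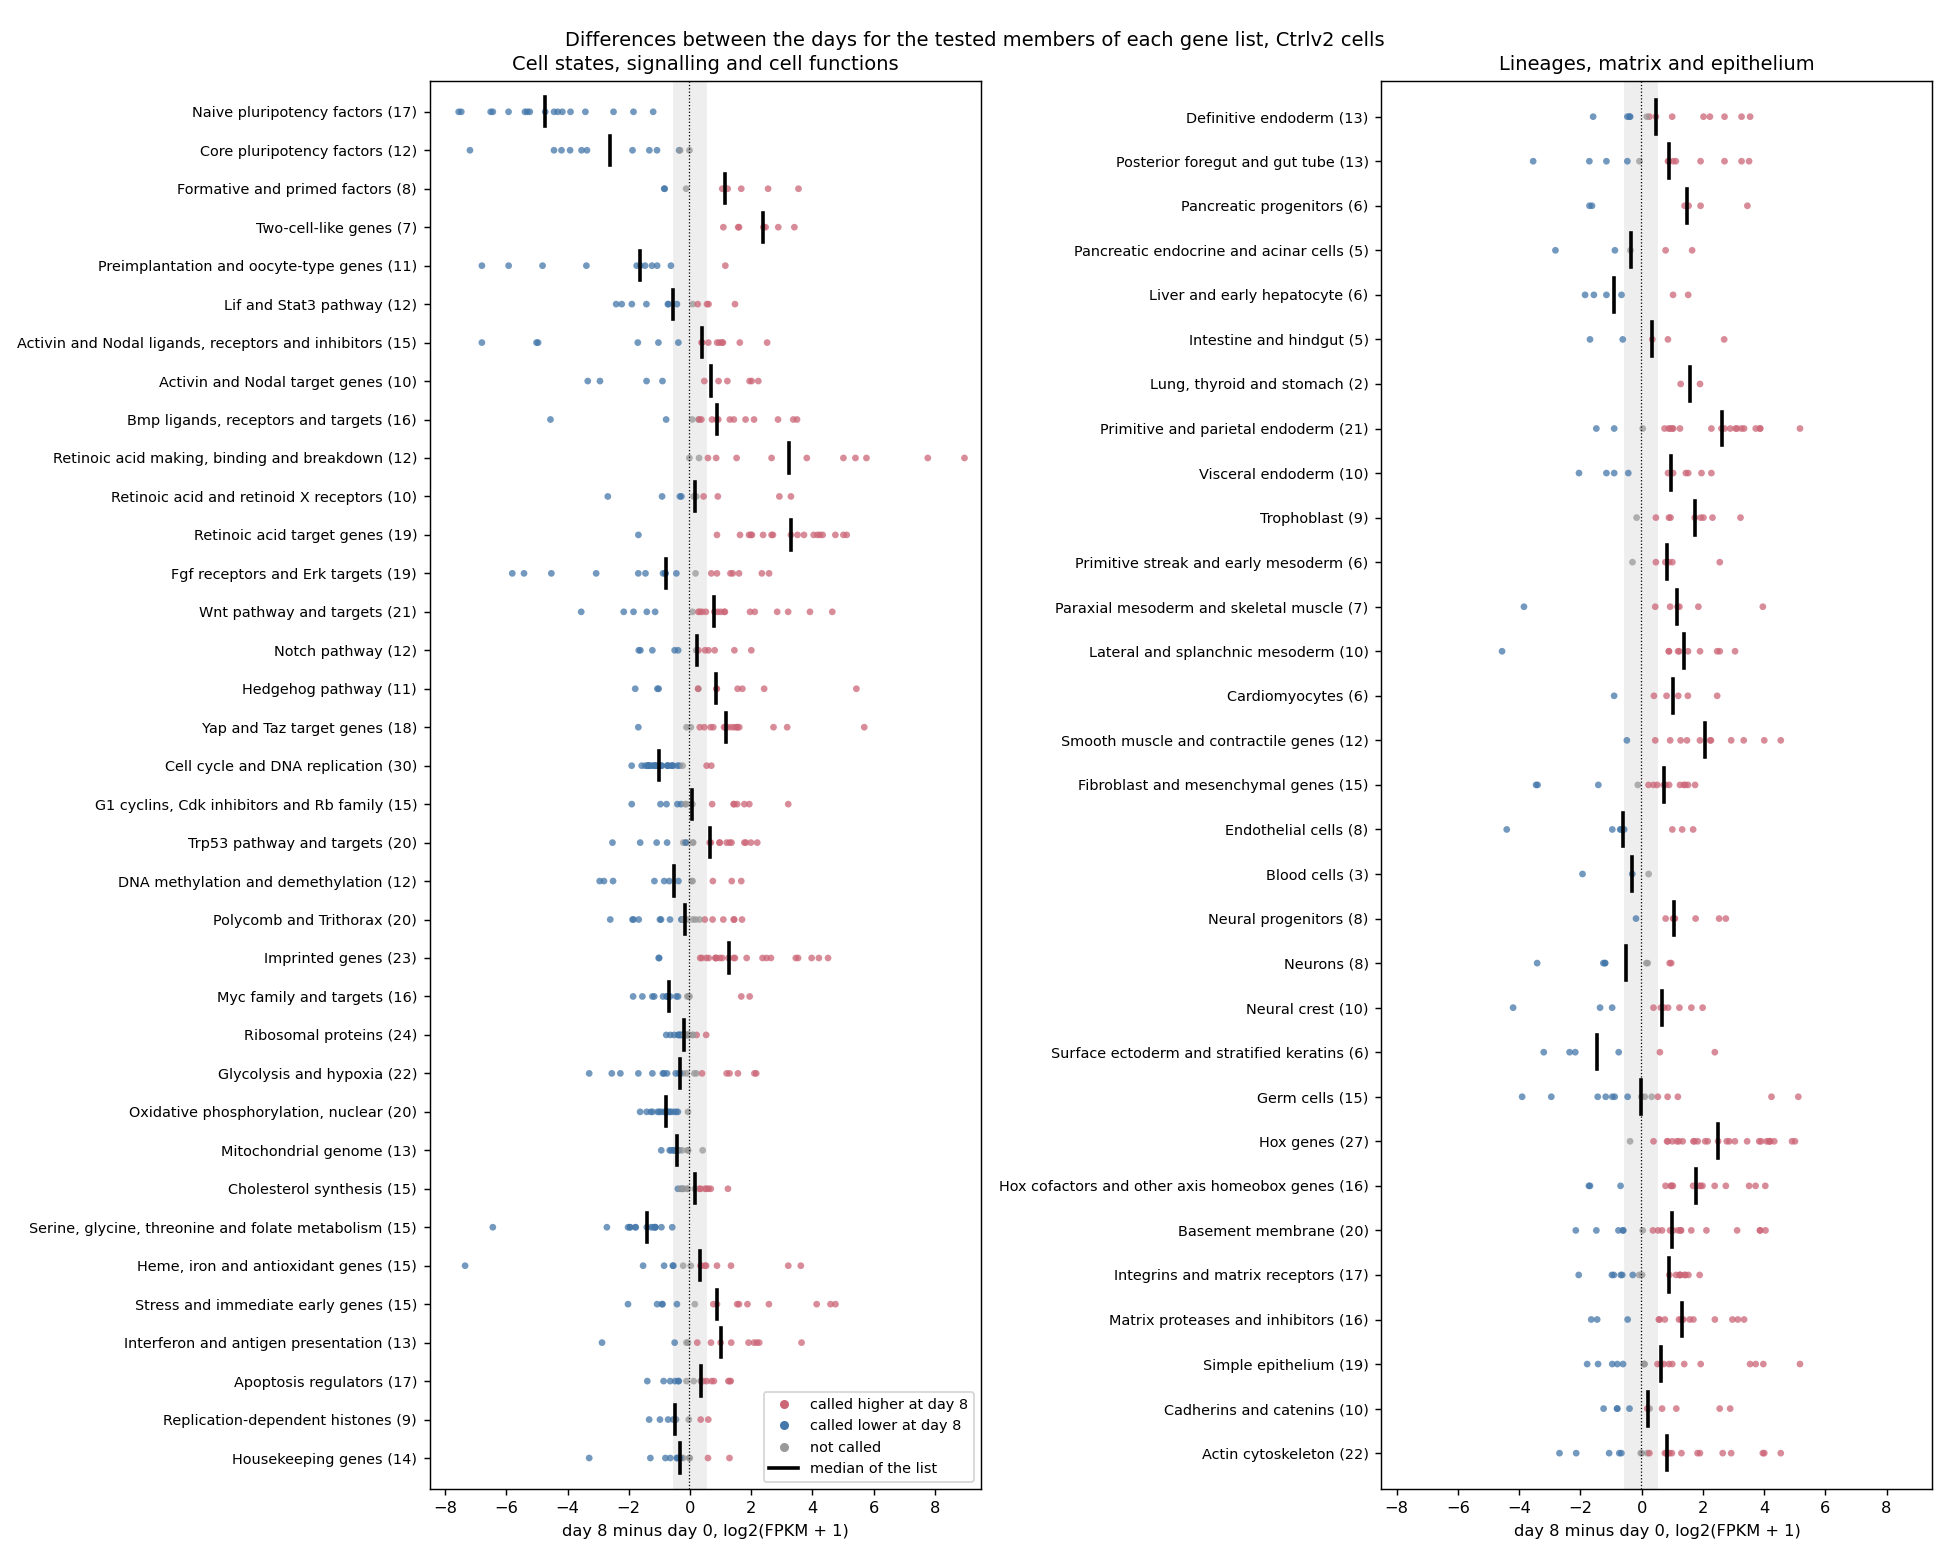
Differences between day 8 and day 0 in log2(FPKM + 1) for the tested members of each gene list (number tested in parentheses), left for cell states, signalling and cell functions and right for lineages, matrix and epithelium; red, blue and grey points are genes called higher, lower and not called, black bars the list medians, and the grey band the middle 50% of all tested genes (-0.53 to 0.52). Naive pluripotency factors lie furthest left (median -4.73). Furthest right are retinoic acid targets (3.30), retinoic acid making, binding and breakdown (3.24), primitive and parietal endoderm (2.61) and Hox genes (2.50), while the retinoic acid receptor list lies in the band (0.16).

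Basement membrane genes were mostly called higher. Of 20 tested basement membrane genes 14 were called higher and 5 lower (median 0.98). Tinagl1, a matrix glycoprotein, rose from 1.91, 1.13 and 1.74 FPKM to 37.9, 42.1 and 44.7 FPKM (log2 difference 4.05, SE 0.11), and Lamb1 from 6.1 to 6.44 FPKM to 55.2 to 68.8 FPKM (3.12, SE 0.07). The partner chain Lamc1, already at 74.1 to 89.1 FPKM at day 0, was not called (adjusted p = 0.763; chosen after its values were seen). Serpinh1, the collagen chaperone, rose from 38.7, 34.3 and 37 FPKM to 269, 290 and 323 FPKM (2.97, SE 0.09), and Itga6, a laminin receptor subunit of stem cells, fell from 31 to 37 FPKM to 7.07 to 7.83 FPKM (-2.05, SE 0.10).

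Genes of simple epithelia moved in both directions, with 11 of 19 tested members called higher and 5 lower (median 0.63). Krt19 rose from 3.43, 2.95 and 3.34 FPKM to 67.2, 62.1 and 67.8 FPKM (log2 difference 3.98, SE 0.16). Epcam fell from 77.3 to 84.2 FPKM to 21.3 to 25.9 FPKM (-1.78, SE 0.08), and Cdh1, E-cadherin, from 74.4 to 86.4 FPKM to 43.8 to 46.8 FPKM (-0.79, SE 0.07), while the neural cadherin Cdh2 measured 6.86 to 8.23 FPKM at day 8. In the actin list 14 of 22 genes were called higher and 5 lower. Lmna, the nuclear lamin, fell from 23.7 to 26.4 FPKM to 2.71 to 3.36 FPKM (-2.68, SE 0.08), against the direction of most of that list.

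Genes of proliferation fell modestly. Of 30 cell cycle and replication genes 27 were called lower and 2 higher (median -1.02). Mcm5, of the replicative helicase, fell from 163, 148 and 148 FPKM to 49.9, 50.3 and 51.5 FPKM (log2 difference -1.58, SE 0.05), and E2f2 from 10.9 to 12.1 FPKM to 2.22 to 2.51 FPKM (-1.90, SE 0.09). Mybl2, a mitotic activator outside the lists and chosen after its values were seen, fell from 263, 242 and 246 FPKM to 29.3, 31 and 28.1 FPKM (-3.04, SE 0.09). Mki67 was 1 of the 2 called higher, with overlapping libraries (7.01, 22.9 and 12.7 FPKM, then 22.5, 20.2 and 21.5 FPKM, adjusted p = 0.0274; chosen after its values were seen). That call was lost without replicate 1 (adjusted p = 0.143) or 3 (0.0582) of day 0, and without replicate 1 (0.0675) or 3 (0.0561) of day 8.

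The list of G1 cyclins, Cdk inhibitors and the Rb family divided, with 7 of 15 members called higher and 5 lower (median 0.08). The gene in the series title was among those that rose. Cdkn2a, which encodes p16Ink4a and p19Arf from overlapping reading frames that gene-level values do not separate, measured 2.92, 1.89 and 3.36 FPKM at day 0 and 32.5, 32 and 34.3 FPKM at day 8. Its neighbour Cdkn2b rose from 0.29 to 0.656 FPKM to 3.31 to 5.55 FPKM (log2 difference 1.94, SE 0.15), and Cdkn1a from 12.7, 8.68 and 10.7 FPKM to 35.3, 41.3 and 39.6 FPKM (1.78, SE 0.13). Ccnd3, a D-type cyclin, fell from 35.5 to 38.4 FPKM to 8.23 to 10.4 FPKM (-1.90, SE 0.08). Trp53, whose protein p19Arf protects from Mdm2, fell from 136, 117 and 135 FPKM to 38.6, 40.8 and 44.3 FPKM (-1.63, SE 0.08, adjusted p = 1.09e-11). Mdm2, the ligase that marks p53 for breakdown, rose from 22.7, 24.2 and 23.3 FPKM to 58.6, 62.4 and 55.3 FPKM (1.29, SE 0.09). Npm1, a nucleolar protein that binds p19Arf, was called lower, with no day 8 library above the lowest of day 0 (743, 972 and 847 FPKM, then 668, 734 and 637 FPKM, -0.32, SE 0.11, adjusted p = 0.012). It was no longer called without replicate 2 of day 0 (adjusted p = 0.074), without replicate 3 of day 8 (0.0516) and with libraries scaled to the same sum of FPKM. Targets of Trp53 divided (11 of 20 higher, 5 lower, median 0.66). Ccng1 rose from 29.6 to 35.9 FPKM to 132 to 139 FPKM (1.99, SE 0.10), Trp53inp1 from 13.1, 23.6 and 15.5 FPKM to 82.3, 83.1 and 77.8 FPKM (2.20, SE 0.15), and the apoptosis gene Pmaip1 (Noxa) fell from 25.3 to 30.3 FPKM to 3.36 to 4.81 FPKM (-2.53, SE 0.12).

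Chromatin regulators moved in both directions. Of 12 genes of DNA methylation and demethylation 3 were called higher and 7 lower (median -0.53). Tet1, which oxidises methylcytosine, fell from 22.5, 41.7 and 27.3 FPKM to 2.96, 3.09 and 2.8 FPKM (log2 difference -2.95, SE 0.17), and Tet2 fell by 2.51, while Tet3 rose by 1.36. Zfp57, which protects methylation at imprinted loci, fell from 178, 198 and 195 FPKM to 24.7, 26.4 and 27.8 FPKM (-2.81, SE 0.11). Phc1, of Polycomb complex PRC1, fell from 90.6 to 96.5 FPKM to 13.8 to 15.6 FPKM (-2.60, SE 0.07), and Eed, of PRC2, from 105 to 117 FPKM to 28.5 to 32.3 FPKM (-1.85, SE 0.06). Cbx8, another PRC1 subunit, rose from at most 0.0675 FPKM to 2.15 to 2.82 FPKM (1.70, SE 0.08). Over 20 Polycomb and Trithorax genes 6 were called higher and 8 lower (median -0.16), and 70.0% were called in all against 73.0% of all genes.

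Imprinted genes rose in the main, with 21 of 23 tested genes called higher and 2 lower (median 1.26). Peg10 rose from 19.8, 23.4 and 19.9 FPKM to 460, 383 and 379 FPKM (log2 difference 4.21, SE 0.10), and Peg3 from 1.34 to 1.89 FPKM to 52.1 to 64.2 FPKM (4.51, SE 0.12). Igf2, a fetal growth factor, went from 0.0239, 0.0139 and 0 FPKM to 11.6, 10.1 and 10.5 FPKM (3.53, SE 0.09), and its neighbour H19 from 0.0882 to 0.181 FPKM to 16.8, 21.2 and 13.8 FPKM (3.97, SE 0.12). These are expressed from opposite parental copies in the embryo, and levels of both rose here.

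Metabolic lists differed in direction. All 15 genes of serine, glycine, threonine and folate metabolism were called lower, 13 by at least 2-fold, with a median of -1.41. Tdh, threonine dehydrogenase, on which mouse stem cells depend for glycine and one-carbon units, fell from 289, 264 and 275 FPKM to 1.51, 2.77 and 2.42 FPKM (log2 difference -6.44, SE 0.19, adjusted p = 1.09e-13). Gldc fell from 83.2 to 97.6 FPKM to 12.1 to 13.4 FPKM (-2.71, SE 0.09), and Shmt2 from 186 to 199 FPKM to 45.5 to 50.8 FPKM (-1.96, SE 0.06). Nuclear genes of oxidative phosphorylation fell less but together (19 of 20 lower, none higher, median -0.78). Of 22 tested genes of glycolysis and hypoxia 6 were called higher and 11 lower (median -0.33). Pfkp, a phosphofructokinase, fell from 33.4 to 39.5 FPKM to 5.18 to 5.52 FPKM (-2.55, SE 0.14), and Eno3, the muscle enolase, rose from 7.64 to 8.86 FPKM to 37.1 to 43.8 FPKM (2.16, SE 0.11). Genes of cholesterol synthesis had 7 of 15 tested members called higher and 2 lower (median 0.15).

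Heme, iron and antioxidant genes divided, with 8 of 15 tested members called higher and 5 lower (median 0.34). Txnip, which restrains glucose uptake and thioredoxin, had one of the largest falls, from 417, 238 and 364 FPKM to 0.665, 1.3 and 1.21 FPKM (log2 difference -7.35, SE 0.17, adjusted p = 7.87e-15). Gpx3, a secreted glutathione peroxidase, rose from 6.41 to 8.36 FPKM to 95.6 to 113 FPKM (3.62, SE 0.11). Nqo1, a quinone reductase, fell from 13.1 to 16.7 FPKM to 4.02 to 4.73 FPKM (-1.53, SE 0.13). Hmox1, heme oxygenase, went from 33.4 to 39.4 FPKM to 199, 520 and 371 FPKM (3.21, SE 0.25).

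Of 15 tested stress and immediate early genes 9 were called higher and 5 lower (median 0.88). Hspa1b, a heat shock chaperone, went from 0.964, 0.792 and 0.597 FPKM to 25.2, 76.7 and 52.8 FPKM (log2 difference 4.75, SE 0.28). Hspa1a ran in the same order at day 8 (14.7, 47.5 and 33.2 FPKM, from at most 0.261 FPKM at day 0). Replicate 2 of day 8, which stood apart on the second component, was the highest library for Hmox1, Hspa1a and Hspa1b, and without it 5301 genes were called higher and 5474 lower. Jun, an immediate early gene, was even across day 8 (43.9, 45.1 and 48.7 FPKM, from 1.51 to 1.94 FPKM, 4.14, SE 0.10). Asns, asparagine synthetase, fell from 239 to 267 FPKM to 54.5 to 69.8 FPKM (-2.03, SE 0.10).

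Most tested genes of interferon and antigen presentation were called higher. B2m, the light chain of class I molecules, rose from 36.7, 31.2 and 34.1 FPKM to 404, 456 and 449 FPKM (log2 difference 3.64, SE 0.10, adjusted p = 1.61e-14). Tap1, the peptide transporter, rose from 0.333 to 0.5 FPKM to 5.47 to 5.93 FPKM (2.26, SE 0.08), and the heavy chain H2-K1 from 13.9 to 16.2 FPKM to 67.1 to 73 FPKM (2.18, SE 0.07). Ifitm1, an interferon-inducible gene that marks stem cells and germ cells, fell from 40.8 to 48.1 FPKM to 4.33 to 6.58 FPKM (-2.87, SE 0.14). Of 13 tested members 9 were called higher and 2 lower (median 1.00). The interferon-induced genes Irf7, Ifit1 and Ifit3 were below the filter (chosen after their values were seen). Gbp2, an interferon-induced GTPase, went from 0, 0.0158 and 0 FPKM to 13.6, 9.95 and 10.6 FPKM (3.61, SE 0.15).

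Several of the largest changes lay outside the pathways above. Pmp22, a membrane protein of myelin and growth arrest, rose from 1.13, 0.842 and 0.869 FPKM to 229, 251 and 230 FPKM (log2 difference 6.93, SE 0.14, adjusted p = 6.3e-16). Mdk, midkine, a growth factor first found as a retinoic acid response gene, rose from 97.3, 80.2 and 85.7 FPKM to 1791, 1687 and 1732 FPKM (19.8-fold in FPKM, log2 difference 4.30, SE 0.10, adjusted p = 2.62e-15) and was then among the 15 most abundant genes. Gpc3, a heparan sulfate proteoglycan, rose from 6.48 to 8.41 FPKM to 193 to 219 FPKM (4.65, SE 0.09). Prtg, protogenin, was even across replicates on both days (0.583, 0.515 and 0.599 FPKM, then 41.5, 41.9 and 41.8 FPKM). Car4, a membrane carbonic anhydrase, went from 0.0174, 0 and 0.142 FPKM to 39.2, 34.3 and 36.5 FPKM (5.16, SE 0.11). Sox4, chosen after its values were seen, rose from 0.976 to 1.14 FPKM to 34.4 to 39.2 FPKM (4.18, SE 0.08).

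Falls outside the pathways included Sept1, a septin, from 295, 279 and 294 FPKM to 0.728, 0.75 and 1.49 FPKM (log2 difference -7.21, SE 0.18), and the junction protein Jam2, from 78.1 to 88.5 FPKM to 0.358 to 0.627 FPKM (-5.85, SE 0.23). Kirrel2 had 25.7, 23.6 and 26.1 FPKM at day 0 and no read in any day 8 library, at least 1275-fold lower when day 8 is set at 3 reads over its 3 libraries together. Nphs1, which encodes nephrin and lies next to Kirrel2 on chromosome 7, fell from 19.7, 20.1 and 19.4 FPKM to 0.0784, 0.0284 and 0.0358 FPKM (-4.31, SE 0.08). The proteins of both are known from the slit diaphragm of the kidney. By a rule of at most 0.1 FPKM on one day and at least 5 on the other, 40 genes switched on and 44 switched off.

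Some neighbouring genes moved in blocks. Runs of at least 5 neighbouring tested protein-coding genes, all called at least 2-fold in 1 direction, numbered 11, of which 8 were higher. The longest held 13 predicted genes on chr12:87494721-88324026 (median 1.86), among them Gm8332 (1.02, 1.37 and 1.71 FPKM, then 36.5, 25.5 and 35.4 FPKM, log2 difference 3.82, SE 0.28). Next came the 10 Hoxb genes and then 8 Zscan4 genes on chr7:10900740-11614112 (median 2.57). A run on chr13:119912095-120318178 (5 genes, median 2.19) held Tcstv3 and Gm20767, which went from 0.0719 to 0.478 FPKM to 8.04 to 10.1 FPKM. Reads of such copies may be shared among them. Among the 3 runs that were lower, H2-M5 and Zfp57 were neighbours on chr17:36977701-37075067 (5 genes, median -2.81), where H2-M5 fell from 36.7 to 41.8 FPKM to 0.14 to 0.264 FPKM. The runs and the predicted genes in them were chosen after their values were seen.

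Shares of calls were also taken by kind of transcript, with no test between the kinds. Protein-coding genes were called higher in 39.8% and lower in 38.2% of 12773 tested, against 14.2% and 53.1% of 367 long intergenic non-coding RNAs and 10.3% and 28.7% of 988 processed pseudogenes. Libraries were of polyadenylated RNA, and counts of pseudogenes can hold reads of their parent genes.

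Abundant messages set the frame for these changes. Eef1a1, the translation elongation factor, did not pass the test at 7597, 6646 and 7290 FPKM against 6803, 7372 and 7219 FPKM (adjusted p = 0.932), and it was called higher by 0.13 (adjusted p = 0.0251) when libraries were scaled to the same sum of FPKM. Tpt1, a growth-linked tumour protein, rose from 1503, 1354 and 1560 FPKM to 3413, 3688 and 3596 FPKM (log2 difference 1.28, SE 0.07), and Dppa5a, an RNA-binding protein of stem cells, fell from 2803, 2762 and 2723 FPKM to 79.8, 58.6 and 68.5 FPKM (-5.31, SE 0.16). Of 24 ribosomal protein genes 2 were called higher and 9 lower, a share of 45.8% against 73.0% of all genes, and with either scaling 4 were higher and 7 lower. Gapdh, often used as a reference, was uneven within both days (106, 88 and 18.7 FPKM, then 2.89, 14.2 and 2.37 FPKM, adjusted p = 0.0213), its call was lost without replicate 1 (adjusted p = 0.078) or 2 (0.0688) of day 0 and without replicate 1 (0.0619) or 3 (0.0678) of day 8, and its many pseudogenes make the value uncertain. Sumo2 varied as widely within day 8 (111, 10.7 and 54.8 FPKM) and was not called (adjusted p = 0.631). Scaling to the same sum of FPKM shifted the median of all genes by 0.1136, and calls higher were then 56.3% of all calls, against 49% here.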

How the data were processed

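The authors deposited 1 table of FPKM values for all 18 libraries, with gene coordinates, lengths and transcription factor families. Per the submitters' processing notes, HISAT2, featureCounts, DESeq2 and the mm10 assembly were used, with versions and settings not given in the sources used here. Every FPKM value times its gene length was a whole multiple of a step fixed within its library (413772 of 413772 values above 0, tolerance 0.001 reads). The reads recovered this way served for depth, thinning and floors of 3 reads only. Such floors and the depths cover counting error only.

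Values were taken as log2(FPKM + 1), so with a pseudocount of 1. The test took genes that reached 0.5 FPKM in 3 or more of the 6 Ctrlv2 libraries, and used limma 3.58.1 (R 4.3.3, statmod 1.5.0) in a model with 1 coefficient for each of the 6 groups over 18 libraries (12 residual degrees of freedom), with empirical Bayes moderation, trend and robust settings. Calls were made below an adjusted p of 0.05. The procedure was tested on simulated data. No scaling was added to the deposited values. Promoter windows came from RefSeq (GRCm38.p6), and figures from Python 3.11.15, pandas 2.3.3, numpy 2.4.6 and matplotlib 3.10.9.

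Lists and the genes compared were chosen with earlier results of these data known, so they are no independent support. Genes named were up to 6 per list (called, at least 1 FPKM, largest difference first), the 30 largest separated rises and falls with at least 5 FPKM, the 15 most abundant per day, the 15 highest switch genes per direction, the 8 most variable per day, and the p19Arf pathway. Aldh1a2, Crabp1, Id1, Lifr, Tcstv3 and Zfp352, beside those marked in the text, were named after their values were seen. Some members of the lists are not reported here by name and stay in the counts.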

Additional observations from a re-analysis of the deposited data

How the results depend on the processing

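More genes were called lower than higher (5688 against 5465), and that order turned with libraries scaled to the same total of reads (5086 against 5986) or the same sum of FPKM (4811 against 6190), and in no other alternative that was run. Among calls of at least 2-fold, more were higher than lower under all of them. Of 67 list medians, those of the Notch pathway (0.24 to -0.39), of Intestine and hindgut (0.35 to -0.62) and of Neural crest (0.68 to -0.17) took the other sign over members averaging 1 FPKM or more. That of Germ cells, at -0.01, was 0.06 to 0.11 with either scaling and without replicate 2 of either day. The count of genes called at least 2-fold higher was 1809 and reached 2750 with a pseudocount of 0.1, a scale on which low genes move further. Leaving out each library in turn gave 5223 to 5396 genes higher, 5381 to 5512 lower, 1762 to 1861 at least 2-fold higher and 1652 to 1711 at least 2-fold lower. With a replicate block over 18 libraries 5350 genes were higher and 5578 lower (1808 and 1677 by at least 2-fold), and with a replicate block over the 6 Ctrlv2 libraries 4986 and 5262 (1806 and 1672). Same-numbered libraries of the days did not deviate together (correlations -0.018, 0.042 and 0.019), and differently numbered ones gave -0.079 to 0.069. Such small values cannot show whether the numbers pair cultures across the days. Of the 866 genes followed through the alternatives, 1 took the opposite sign together with a call: Eef1a1, not called at a log2 difference of -0.01, was called at 0.13 with libraries scaled to the same sum of FPKM, where 19 other calls were lost and 28 gained. Thinned reads lost 20 calls and gained 2. Depth at day 8 limits what can be said of low genes: 3 reads on a gene of 1 kilobase correspond to 0.282 FPKM in its shallowest library.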
